A study of Mus musculus with 8 samples.

Results

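In fibroblasts that lack E2f3, the peaks that an antibody against E2F3 still gave were compared with the HELLS peaks of the same cells. The authors listed 3314 peaks for the E2F3 antibody and 4740 for HELLS in E2f3-/- cells. Peaks of both lists that shared at least 1 bp were merged, which gave 5586 regions covering 4.23 Mb, out of 27092 regions formed by the peaks of all 6 ChIP libraries of the series. Of the 5586 regions, 2392 (42.8%) were listed for both antibodies, 881 (15.8%) for the E2F3 antibody alone and 2313 (41.4%) for HELLS alone. The question was how far the remaining antibody signal and HELLS met at places where unrelated antibodies also gave reads.

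E2F3 belongs to the E2F transcription factors, which bind promoters of genes for DNA replication and cell division and are held in check by the retinoblastoma protein. HELLS (also called LSH) is an SNF2-type chromatin remodelling helicase, best known for its part in DNA methylation of repeats. Open chromatin at promoters is known to give reads with many antibodies and with IgG, which is why a knockout of the target and an IgG control are used to read a ChIP profile.

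The cells were embryonic fibroblasts of mouse embryos of stage E13.5, and the genotypes were wild type and E2f3-/-. Each genotype has 1 ChIP-seq library for E2F3, HELLS, H3K27me3 (the histone mark of Polycomb silencing) and IgG. The labels name no further allele or treatment and do not say how many embryos each library came from. With 1 library per group, each value below compares libraries and not conditions, and no test was possible. The 95% intervals in parentheses are exact. Those of ratios cover only counting error, and those of shares treat peaks, regions or bins of 1 library as separate draws.

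The E2F3-antibody library of the E2f3-null cells held 4303093 distinct reads and the HELLS library 5377465, and the other 4 ChIP libraries held between 3799779 and 5640555. The IgG files of both genotypes were identical and were used as 1 library of 7219419 reads, so IgG values carry no genotype. The control that the headers name had 3791438 tags for the E2f3-null lists and 3444066 for the wild-type lists. The IgG measured here is therefore not the E2f3-null control alone. It may hold the reads of both controls, which was not checked. Both E2f3-null lists were called against the 1 control named for them, so the lists are not independent of each other. The deletion in E2f3 itself was not checked here. Reads in the 5586 regions made up 2.64% of the E2f3-null E2F3-antibody library, 3.19% of the E2f3-null HELLS library and 1.22% of IgG. In the wild-type libraries, which did not choose the regions, they made up 5.90% for E2F3 and 2.52% for HELLS.

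Most of the E2F3-antibody peaks that remained without E2f3 lay on a HELLS peak. Of the 3314 E2F3-antibody peaks 73.4% (71.9 to 74.9) overlapped one, and of the 4740 HELLS peaks 51.2% (49.8 to 52.6) overlapped an E2F3-antibody peak. The stronger a peak was by the authors' score (10 times the negative log10 of the peak caller's p-value), the more often it was shared. In 4 equal groups of peaks, from the lowest scores to the highest, the shared percentage of E2F3-antibody peaks went from 52.5 to 67.7, 81.3 and 92.2. For HELLS peaks it went from 25.1 to 40.9, 58.7 and 80.1. The lists end at scores of 50.01 and 50.02, and 991 E2F3-antibody and 868 HELLS peaks scored between 50 and 60. Their weakest peaks held 7 and 8 tags.

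Shared regions thus held the stronger peaks of both lists, as the authors' scores describe them. The median E2F3-antibody score was 77.8 in regions listed for both and 59.6 in regions of that antibody alone. The median HELLS score was 116 in regions listed for both and 72.1 in regions of HELLS alone. In 611 of the 2392 shared regions the best-scored E2F3-antibody peak had a false discovery rate above 5% in the authors' table. The same was so in 505 of the 881 regions of that antibody alone. Of the HELLS peaks, 0 had such a rate. Regions listed for both had a median length of 876 bp, against 480 and 636 bp in the classes of 1 antibody, partly because merging joins intervals. The X chromosome held 79 of the 5586 regions (1.41%) and the Y chromosome 2.

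In the shared regions, the summits of both antibodies mostly lay close together. Overlap of the peaks chose these regions, whose median length was 876 bp, and this limits the distance. No background distance was taken. The median distance between the E2F3-antibody and HELLS summits was 69 bp (quartiles 26 and 184) over the 2392 shared regions. Of these, 60.8% (58.8 to 62.8) were within 100 bp and 82.4% (80.9 to 84.0) within 250 bp. The largest distance was 1369 bp. In the 526 shared regions that scored 100 or more in both lists the median was 87 bp. Read profiles of the shared regions were centred on the HELLS summit, which favours the height of HELLS. In the 100 bp on the side of higher coordinates, the mean density relative to the genome outside peaks was 33.1-fold for the E2F3 antibody, 47.5-fold for HELLS and 10.2-fold for IgG.

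**Figure D1:**
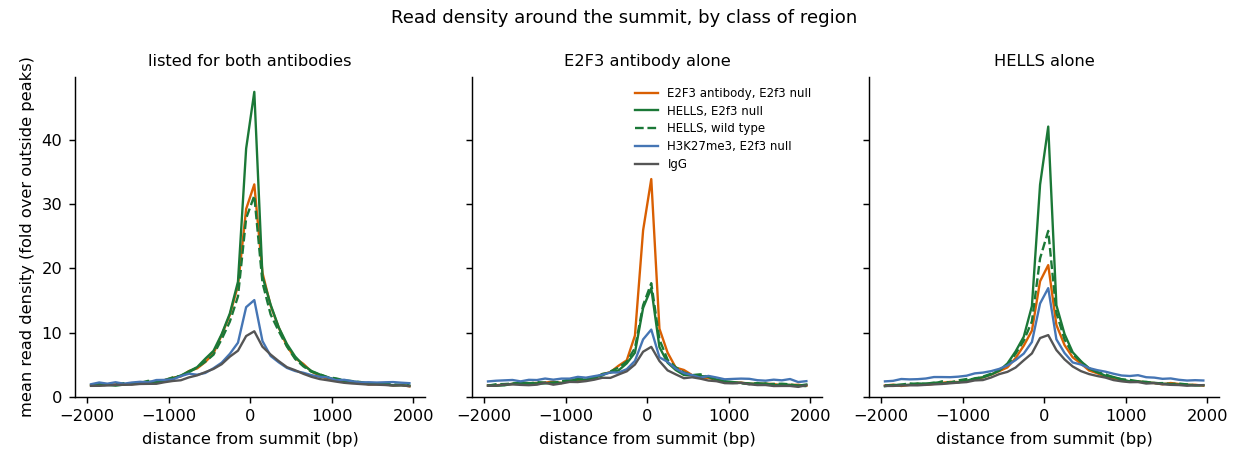
Mean read density (vertical axis, fold over the density outside all peak regions) against distance in bp from the HELLS summit (from the E2F3-antibody summit in regions of that antibody alone), for 4 ChIP libraries and IgG in each class of region; there is 1 library per line. At shared regions the E2F3 antibody and HELLS of E2f3-null cells rise to 33.1-fold and 47.5-fold on the same summit, and IgG also rises, to 10.2-fold.

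IgG was itself dense at these regions. IgG reads were 7.66 times (7.61 to 7.72) as dense in the 5586 regions as outside peaks, with 7.67 in regions listed for both, 6.63 for the E2F3 antibody alone and 7.97 for HELLS alone. An IgG density at least 2-fold above the outside, with an interval above 1, was found in 97.7% (97.0 to 98.2) of the shared regions. The share was 73.6% (70.5 to 76.4) for the E2F3 antibody alone and 89.1% (87.7 to 90.3) for HELLS alone. Over all 27092 series regions it was 53.1%, and IgG was 4.47 times as dense as outside peaks. The regions of the E2F3 antibody alone were therefore the class with the smallest share of raised IgG. They were also the shortest, with medians of 480 bp and 8 IgG reads, which leaves fewer reads to call from. No IgG read fell in 37 of these 881 regions, in 33 of the 2313 of HELLS alone and in 0 of the 2392 shared regions.

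At like IgG count the observed sharing was above that of moved peaks. By how much depended on the width of the bin in which IgG was counted. When E2F3-antibody peaks were moved at random among 10 kb bins of like IgG count, 1.16% of them met a HELLS peak on average (0.664 to 1.75 over 100 sets), so the observed share was 63.4 times as high. Moved HELLS peaks met the other list in 0.791% (0.485 to 1.16), a ratio of 64.7. A 10 kb bin is much wider than a peak, and IgG is raised at the peak itself. Among 1 kb bins of the same IgG count the moved peaks met the other list in 20.5% (18.8 to 22.3) and 14.4% (12.9 to 15.7), and the observed shares were 3.57 and 3.55 times as high. These sets describe a background, and no p-value was taken from them. The part of IgG background in the overlap was not tested.

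The same was read without moving any peak. Of 4698 bins of 1 kb that held a HELLS summit, 51.3% (49.8 to 52.7) also held an E2F3-antibody peak. Bins without a HELLS peak held one in 0.0593%, or in 4.17% when weighted to the IgG counts of the HELLS bins, which leaves a ratio of 12.3. With 10 kb bins the values were 52.2% of 4566 bins against 1.31% after weighting, a ratio of 39.9. The moved peaks among 1 kb bins gave higher shares than these weighted bins. Moved peaks could also land on bins that hold a peak of the other list, and their shares count peaks and not bins. The cause of the gap was not tested. In bins with exactly 6 IgG reads, 44.8% (35.1 to 54.8) of 105 bins with a HELLS summit held an E2F3-antibody peak, against 0.0776% of bins without a HELLS peak. At 21 IgG reads the shares were 54.1% (47.1 to 61.0) of 209 bins and 9.36% (6.49 to 13.0) of 342. The share without HELLS climbed to that value and lay between 4.67 and 8.33% from 22 to 42 reads. The share with HELLS climbed at low IgG, from 12.5% at 3 reads to 44.8% at 6, and stayed between 44.6 and 60.9% from 11 to 42 reads. In bins with 43 or more IgG reads, which held 2 HELLS bins, the share without HELLS was 0.508%.

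**Figure D2:**
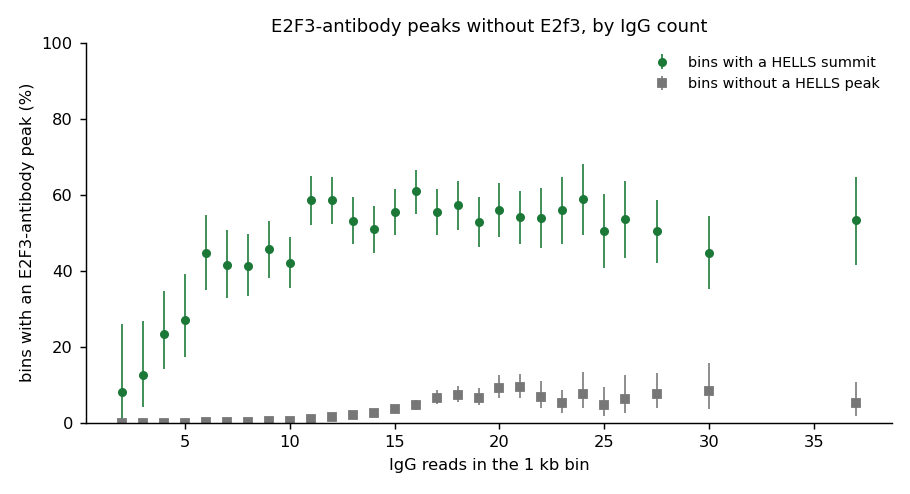
Share of 1 kb bins that hold an E2F3-antibody peak of E2f3-null cells (vertical axis, %) against the IgG reads in the bin (horizontal axis; the rightmost points stand at the middle of a range), for bins with a HELLS summit (circles) and without a HELLS peak (squares); bars are exact 95% intervals over bins. Circles lie above squares at every IgG count with 20 or more HELLS bins, for example 54.1% against 9.36% at 21 reads.

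Within the regions, sharing was most frequent at middle IgG density. In 5 equal classes of IgG density, from the lowest to the highest, the percentage of regions listed for both antibodies was 26.2, 50.6, 54.2, 48.3 and 34.8. The class lowest in IgG had a median of 9.36 IgG reads per kb and a median length of 467 bp, and the highest had 29.6 reads per kb and 746 bp. A peak had to exceed the IgG control to be listed, so IgG density also bears on which regions could enter each list. The median enrichment of the E2F3 antibody over IgG fell across the 5 classes, from a log2 of 1.83 in the lowest to 0.77 in the highest, and that of HELLS from 1.91 to 1.06. Since IgG is the divisor of these values and sets the classes, that order is a description only.

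At the shared regions the median ratio of both antibodies was near 1 once libraries were scaled to their reads outside all peaks. A peak in both libraries chose these regions, so a ratio near 1 there is a description only. The median shared region held 26 E2F3-antibody, 36 HELLS and 18 IgG reads, and the median log2 ratio of HELLS to E2F3 antibody there was 0.15 (quartiles -0.10 and 0.40). A region counted as higher for 1 library at a scaled difference of 2-fold or more whose interval left out 1. By that rule HELLS was higher in 24 (1.00%) of the 2392 shared regions and the E2F3 antibody in 2 (0.08%). Over the 27092 series regions the shares were 1.43% and 1.28%. The other 2366 shared regions were not called, which does not show them to be equal. In regions of the E2F3 antibody alone the antibody was higher in 189 of 881, with a median log2 of -0.83, and in regions of HELLS alone HELLS was higher in 369 of 2313, with a median of 0.65. No region of a single-antibody class was called in the other direction, which the choice of these classes by the same reads fixes.

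Over all 5586 regions HELLS was higher in 393 (7.04%), the E2F3 antibody in 191 (3.42%), and 5002 were not called. Over the 27092 peak regions of the series the same rule called 1.43% higher for HELLS and 1.28% higher for the E2F3 antibody. Since reads of these libraries chose the members, nothing is read from the excess. The balance of calls depended on the scaling. HELLS took 67.3% of the calls with the scaling to reads outside peaks and 43.6% (211 higher, 273 lower) when libraries were scaled to the median of the shared regions. That scaling moved the median log2 ratio over all regions from 0.28 to 0.13. Most regions listed for 1 antibody alone were not called, 692 of 881 for the E2F3 antibody and 1944 of 2313 for HELLS. The rule also needs enough reads, so a region could differ by more than 2-fold and not be called. In regions of the E2F3 antibody alone the lower quartile of the log2 ratio was -1.41, with medians of 15 E2F3-antibody and 10 HELLS reads. The E2F3 antibody had a median log2 over IgG of 0.77 in regions of HELLS alone, against 0.52 over all series regions. HELLS had 0.73 in regions of the E2F3 antibody alone, against 0.46 over the series.

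**Figure D3:**
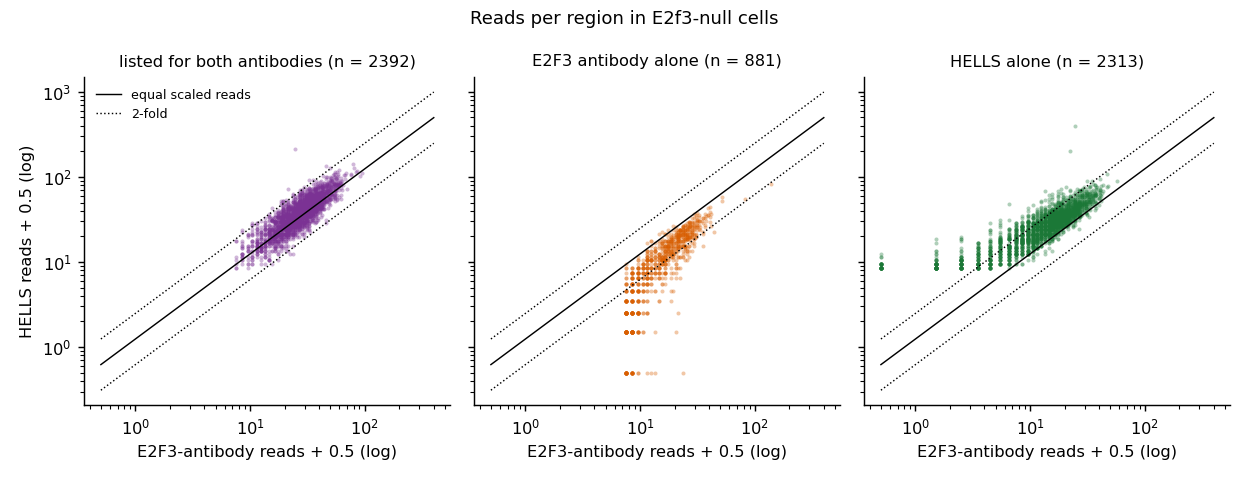
HELLS reads (vertical) against E2F3-antibody reads (horizontal) of E2f3-null cells, each with 0.5 added and on log axes, with 1 point per region and 1 panel per class; the solid line marks equal reads after scaling and the dotted lines a 2-fold difference. Shared regions lie along the line (24 and 2 of 2392 called), while regions listed for 1 antibody alone (189 of 881 and 369 of 2313 called) continue the same cloud to one side.

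Enrichment over IgG in the pair of libraries that chose the regions is given as a description. By the 2-fold rule the E2F3 antibody was enriched in 76.1% of shared regions, 76.2% of its own and 16.2% of those of HELLS alone, against 10.7% of all series regions. HELLS was enriched in 84.7%, 12.9% and 80.1%, against 14.6%, so its share in regions of the E2F3 antibody alone lay near that of the series. In the shared regions 1649 of 2392 passed for both antibodies and 197 for neither, although both lists hold a peak there.

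The wild-type E2F3 and HELLS libraries and both H3K27me3 libraries did not choose the regions. In wild-type cells the E2F3 antibody was enriched over IgG in 96.3% (95.5 to 97.0) of the shared regions, 61.6% (58.3 to 64.9) of those of the E2F3 antibody alone and 82.2% (80.6 to 83.7) of those of HELLS alone, against 34.5% of all series regions. Its median log2 over IgG was 2.39, 1.70 and 2.08. Regions that HELLS alone marked in E2f3-null cells thus carried wild-type E2F3 signal more often than the 881 regions marked by the E2F3 antibody alone. These classes were not alike, with median lengths of 636 and 480 bp and medians of 14 and 8 IgG reads. In 4 equal groups of HELLS score, lowest first, the share was 69.3, 85.9, 93.9 and 95.7% for HELLS alone. By E2F3-antibody score it was 52.0, 65.1, 69.5 and 87.7% for that antibody alone. The part of length, reads and score was not tested. The authors' wild-type E2F3 list overlapped 86.9% of the shared regions, 46.3% of those of the E2F3 antibody alone and 71.4% of those of HELLS alone.

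HELLS in wild-type cells followed the same order over the classes. It was enriched over IgG in 61.1% (59.1 to 63.0) of the shared regions, with a median log2 of 1.16. In regions of HELLS alone the share was 34.3% (32.4 to 36.3), with a median of 0.95, and in regions of the E2F3 antibody alone it was 18.5% (16.0 to 21.2), with a median of 0.78. Over all series regions it was 11.9%. A region where the E2F3 antibody also gave a peak without E2f3 was therefore enriched for HELLS in wild-type cells more often than a region where HELLS alone gave one. Shared regions had higher HELLS scores, so the classes were also compared within 4 equal groups of HELLS score. From the lowest to the highest group, wild-type HELLS was enriched in 38.3, 47.5, 58.6 and 76.7% of the shared regions and in 21.0, 31.6, 48.0 and 64.5% of the regions of HELLS alone. In the highest group the intervals were 73.8 to 79.3 for 943 shared regions and 58.0 to 70.7 for 234 of HELLS alone. Regions are not replicates, so these intervals describe 1 library and serve as no test. Median length still differed within each group, from 729 against 541 bp in the lowest to 992 against 862 bp in the highest, and longer regions hold more reads to call from. In the highest group the median score also differed, at 185 and 165. The part of length and score in the difference was not tested.

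H3K27me3 did not follow this order. In E2f3-null cells it was enriched over IgG in 15.8% (14.4 to 17.3) of the shared regions, 14.0% (11.7 to 16.4) of those of the E2F3 antibody alone and 18.7% (17.1 to 20.3) of those of HELLS alone, against 31.4% of all series regions. Its median log2 over IgG was below 0 in each class, at -1.11, -0.60 and -0.93. In wild-type cells it was enriched in 32.5% (30.6 to 34.4), 33.4% (30.3 to 36.6) and 35.5% (33.6 to 37.5), against 63% of all series regions, which include the H3K27me3 peaks themselves. The wild-type medians were above 0, at 0.56, 0.90 and 0.70. Both H3K27me3 libraries nevertheless peaked on the same summits when averaged. The mean density in the same 100 bp of shared regions was 15.1-fold in E2f3-null and 31.6-fold in wild-type cells, against 10.2-fold for IgG. In E2f3-null cells the mean was thus above IgG while the median region was below it.

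**Figure D4:**
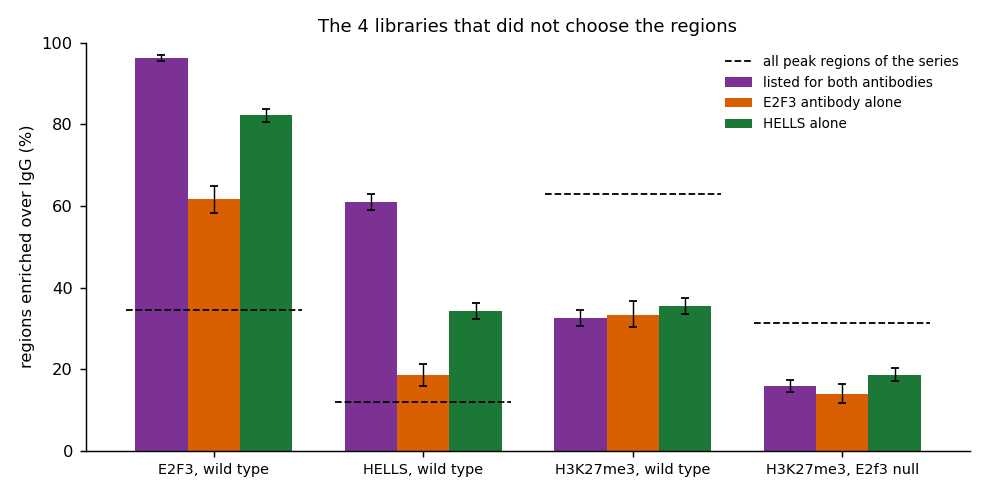
Share of regions enriched at least 2-fold over IgG with an interval above 1 (vertical axis, %) in the 4 libraries that did not choose the regions, by class; error bars are exact 95% intervals over regions and dashed lines the share over all 27092 peak regions of the series. Wild-type E2F3 (96.3%) and HELLS (61.1%) are enriched most often at shared regions, while both H3K27me3 libraries give similar shares in the 3 classes, below the dashed line.

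Counted together, enrichment in the other 4 libraries was common but seldom complete. Of the 2392 shared regions 32 were enriched in 0 of the 4, 636 in 1, 1105 in 2, 402 in 3 and 217 (9.07%) in all 4. Of the regions of the E2F3 antibody alone 217 of 881 (24.6%) were enriched in 0 and 16 (1.82%) in all 4. For HELLS alone 224 of 2313 (9.68%) were enriched in 0 and 152 (6.57%) in all 4. By the authors' lists, 6.52% (5.57 to 7.59) of the shared regions overlapped no peak of the other 4 libraries, against 36.3% (33.1 to 39.6) for the E2F3 antibody alone and 16.1% (14.7 to 17.7) for HELLS alone. Over all series regions 5.37% were enriched in 0 and 1.06% in all 4, and these include the peaks that the 4 libraries themselves chose. Regions of the E2F3 antibody alone were also the shortest and held a median of 8 IgG reads, against 18 and 14 in the other classes, which leaves fewer reads to call from. All 4 libraries were set against the same IgG reads, so their shares are not independent of each other.

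How far the level of the E2F3 antibody tracked that of HELLS depended on which regions were taken. Over the 5586 regions the Spearman correlation of the read densities was 0.353, and within the 5 classes of IgG density it was -0.00046, 0.13, 0.20, 0.15 and 0.24 from the lowest to the highest. Over the same regions IgG density gave 0.441 with the E2F3 antibody and 0.539 with HELLS, higher than the antibodies with each other. That order did not hold elsewhere. In the 2392 shared regions the antibodies gave 0.478 with each other, and IgG gave 0.458 and 0.412. Over the series regions the antibodies gave 0.707, and IgG gave 0.675 and 0.682. Regions enter the set of 5586 by being high for at least 1 of the antibodies, which can lower such a correlation. The part of this choice in these values was not tested. Regions share their length between libraries, and no p-value is given. The 8889 wild-type E2F3 peaks were chosen by neither E2f3-null library. There the correlation was 0.744 between the E2F3 antibody and HELLS of E2f3-null cells, and between 0.592 and 0.655 within classes of IgG density. At the same peaks wild-type E2F3 and E2f3-null HELLS gave 0.510, and 0.335 to 0.437 within the classes. HELLS of E2f3-null and wild-type cells gave 0.796. The E2F3 antibody without E2f3 and H3K27me3 of the same cells gave 0.273. Wild-type E2F3 chose these peaks, which can lower its own correlations there, so these values do not rank the pairs. The part of that choice was not tested. Over the 5586 regions wild-type E2F3 and E2f3-null HELLS gave 0.566, and over all 27092 series regions 0.723, where the E2F3 antibody and HELLS of E2f3-null cells gave 0.707. Of the 3751 wild-type E2F3 peaks with an E2f3-null HELLS peak 55.8% also had an E2F3-antibody peak without E2f3, against 8.14% of the 5138 without a HELLS peak. This contrast held in each class of IgG density, with 50.5 to 60.1% against 5.29 to 10.6%.

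Single regions were named by a rule on the authors' scores, on the ratio of both antibodies and on IgG density. Coordinates are of the mm9 build, and the genes at these places are not given, because no mm9 annotation was used here. The shared region with the highest score was chr17:28313800-28314777, where HELLS gave 215 reads in E2f3-null and 82 in wild-type cells. The E2F3 antibody gave 24 reads there without E2f3 and 95 in wild-type cells, and IgG 23. After scaling, HELLS reached 7.20 times (4.71 to 11.5) the E2F3 antibody without E2f3, and both summits lay within 17 bp of each other. The E2F3 antibody stood 1.78 times over IgG, with an interval from 0.964 to 3.31 that included 1. At the fourth by score, chr3:144382356-144383606, the antibodies were closer, with 39 E2F3-antibody and 64 HELLS reads against 21 of IgG, and the ratio was 1.32 (0.873 to 2.02).

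The highest HELLS score of all fell in a region listed for HELLS alone. At chr9:44688692-44689941 HELLS gave 398 reads in E2f3-null and 280 in wild-type cells, against 33 of IgG, 84 of wild-type E2F3 and 24 of the E2F3 antibody without E2f3. HELLS was 13.3 times (8.83 to 21.1) the E2F3 antibody there. At chr1:55144276-55145207 HELLS gave 201 reads without E2f3 and 111 in wild-type cells, with 22 of the E2F3 antibody and 26 of IgG, and the ratio was 7.35 (4.72 to 12.0). In both regions the interval of the E2F3 antibody over IgG reached below 1, at 0.703 and 0.781. The region chrX:98417549-98418348 held 68 HELLS reads without E2f3 and 22 in wild-type cells, beside 13 of the E2F3 antibody in each genotype. Without E2f3 the E2F3 antibody stood 2.47 times (0.976 to 6.54) over the 9 IgG reads there. These 3 regions show strong HELLS signal where the interval of the E2F3 antibody over IgG included 1, on the X chromosome with few reads. The interval also included 1 at the fourth by score, chr18:7004510-7004956, with 48 HELLS, 6 E2F3-antibody and 8 IgG reads. The fifth, chr16:4419711-4420910, went the other way, with 79 HELLS, 36 E2F3-antibody and 28 IgG reads. There the E2F3 antibody stood 2.20 times over IgG, with an interval that left out 1. The rule for higher HELLS was passed by 24 of 2392 shared and 369 of 2313 HELLS-alone regions, against 1.43% of all series regions. Reads of these libraries chose the members.

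Among regions of the E2F3 antibody alone, the 3 with the highest scores were unlike the rest of the class. At chr6:83233863-83234050 the antibody gave 20 reads in E2f3-null and 19 in wild-type cells, with 1 HELLS and 1 IgG read and a false discovery rate of 100% in the authors' table. At chr9:26072556-26072965 it gave 23 and 27 reads, with 0 HELLS and 0 IgG reads, and the interval of the ratio of HELLS to the E2F3 antibody ended at 0.140. At chr16:45039985-45040437 it gave 21 and 25 reads, with 2 HELLS and 0 IgG reads. All 3 were in the wild-type E2F3 list. They were also the only regions, by a search made after these values were seen, with at least 10 E2F3-antibody reads in E2f3-null cells and at most 2 in each of the 5 libraries of other antibodies.

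The reads at these 3 regions lay almost all on 1 strand. Without E2f3 they were 20 plus and 0 minus on chromosome 6, 0 plus and 23 minus on chromosome 9, and 19 plus and 2 minus on chromosome 16. In wild-type cells they were 19 and 0, 0 and 27, and 25 and 0, on the same strands. Among the 4572 regions with at least 10 E2F3-antibody reads the median share on the plus strand was 50%. Only 12 of these 4572 had 90% or more on 1 strand. The origin of the reads at the 3 regions was not tested. The corresponding search for HELLS found 4 regions with exactly 10 E2f3-null HELLS reads each, and 0 of them had 10 or more in wild-type HELLS. The next region of the E2F3 antibody by score, chr17:69506425-69506929, was of the usual kind, with 11 plus and 12 minus reads, 12 HELLS reads and 11 of IgG. The fifth, chr9:88333293-88333930, held 35 reads of the E2F3 antibody, 15 of HELLS and 18 of IgG, and was 3.32 times (1.83 to 6.23) over IgG.

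The regions with the largest ratios rested on few reads. The 5 with the largest ratio of HELLS to the E2F3 antibody held 9 to 12 HELLS reads and 0 of the E2F3 antibody. For the first of them, chr4:15808285-15808572, the interval of the ratio began at 2.23, and wild-type HELLS gave 4 reads. Of the 5 with the smallest ratio, 1 was the region on chromosome 9 above, and the other 4 held 9 to 13 E2F3-antibody and 0 HELLS reads. Their wild-type E2F3 reads were 2 to 8. The regions densest in IgG were each listed for 1 antibody alone. The top one, chr13:120276718-120277589, held 53 IgG reads, 22.4 times the density outside peaks, with 43 of the E2F3 antibody and 80 of HELLS in E2f3-null cells. The ratio of HELLS to the E2F3 antibody had an interval of 1.02 to 2.22 there. HELLS stood 2.07 times (1.45 to 2.99) over IgG and the E2F3 antibody 1.39 times (0.905 to 2.11). Of the 5 densest, 4 were listed for HELLS alone and 1 for the E2F3 antibody alone.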

How the data were processed

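ChIP-seq reads of 8 samples, 1 per genotype and antibody, were taken from the deposited read files, which list aligned positions. Per the submitters' processing notes the build is mm9. Which aligner was used is not given in the sources used here. Nearly all reads were 25 bp long, and few repeated a position, so duplicates had mostly been removed before deposit. The authors ran MACS 1.4.0beta on each library, with the IgG of its own genotype as control, a cutoff of 1e-05 on p and 1.87 Gb as the effective genome size, per the file headers. Their deposited peak tables hold a count of tags, a score (the −log10 of p multiplied by 10), the fold enrichment (a ratio) and the false discovery rate as a percent. Signal heights in the deposited summit files were not used. The authors' scores rank, split or describe peaks within a list.

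Reads that repeated a position on the same strand were dropped, and each remaining read was placed 60 bp inside from its 5′ end. Counts per region were scaled by reads outside the 27092 peak regions of the series. Ratios of 2 libraries carry exact conditional binomial intervals and shares exact Clopper-Pearson intervals, and log2 ratios add 0.5 to the counts. Distinct reads ranged from 3799779 to 7219419 per library, so a median region held 19 E2F3-antibody and 28 HELLS reads. The region call was tested on simulated counts. Series regions can be wider than the members they contain, because peaks of all libraries were merged, so the counts over both sets of regions differ. Moved peak sets are given because the comparison was framed with them. Named regions were the 5 highest in each class by score, the 5 with the largest and the 5 with the smallest ratio of HELLS to E2F3 antibody among intervals that excluded 1, and the 5 densest in IgG. Members, lists and rules were chosen with earlier results of these data known. Alternatives were other scalings, thresholds, windows, peak filters, overlap rules and chromosomes. Gene lists were not counted, because no mm9 annotation was used here. Python 3.11.15, numpy 2.4.6, pandas 2.3.3 and scipy 1.17.1 were used.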

Additional observations from a re-analysis of the deposited data

How the results depend on the processing

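Of 80 alternative values for 20 results, 39 stayed within the interval of the main value or within 1.5 times the count, 40 moved out of it and 1 changed sign. The share of E2F3-antibody peaks on a HELLS peak was 60.4% with summits within 250 bp, 77.4% with peaks of score 100 or more (678 and 2000 peaks) and 82.7% with a false discovery rate of 5% or less (2174 and 4740 peaks). The share of HELLS peaks on an E2F3-antibody peak was 42.2%, 26.4% and 38.2% in the same order, and 53.1% without the tenth of regions densest in IgG. The fall to 26.4% follows from a list of 678 peaks, which cannot cover 2000. Regions higher with HELLS numbered 211 scaled to shared regions, 656 at 1.5-fold and 204 with score 100 or more, where 25 were higher with the E2F3 antibody. The median log2 ratio was 0.13 scaled to shared regions, 0.32 in a 500 bp window at the summit and 0.42 with score 100 or more. At 1.5-fold, regions enriched over IgG were 56.8% for E2F3 antibody and 76.3% for HELLS in E2f3-null cells, and 50.9% for HELLS and 35.7% for H3K27me3 in wild-type cells. Scaled by all distinct reads, they were 49.3% and 69.6% in E2f3-null cells, and 82.8%, 41.2% and 30.2% for E2F3, HELLS and H3K27me3 in wild-type cells, where shared regions had median log2 values of 2.27 (E2F3) and 1.13 (HELLS). In the 500 bp window they were 48.1% for E2F3 antibody without E2f3, and 83.2% (E2F3) and 45.5% (HELLS) in wild-type cells. Moved E2F3-antibody and HELLS peaks met the other list in 0.283% and 0.199% when placed anywhere in the chromosome, and in 20.5% and 14.4% in 1 kb bins, where the weighted share without HELLS was 4.17%. The summit distance was 87 bp with score 100 or more. The Spearman correlation of both densities was -0.00046, 0.13, 0.20, 0.15 and 0.24 within the IgG classes, 0.600 in the 500 bp window, and 0.744 at wild-type E2F3 peaks, a set chosen after seeing the data, as were the 4 score groups and the weighting of bins. Elsewhere the cause of a shift was not tested. No paired analysis was possible because each group has 1 library. With medians of 19 and 28 reads per region, a region that was not called is not shown to be equal.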
